A study of Mus musculus with 4 samples.

Results

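The 5 NF-κB subunit genes of the mouse, Rela, Rel, Nfkb1, Relb and Nfkb2, were found by gene name among the 24706 genes of each library. Each name matched 1 gene in all 4 libraries. Of these, 3 encode the subunits of the canonical route (Rela, Rel and Nfkb1) and 2 those of the noncanonical route (Relb and Nfkb2). RNA-seq was done on 2 libraries per genotype, those of PD-1f/f mice being labelled wt and those of PD-1f/f; LysM-Cre mice cko, the names used hereafter. In both, LoxP sites flank part of Pdcd1, the gene of the inhibitory receptor PD-1. LysM-Cre places Cre recombinase in the Lyz2 locus, so that Cre follows lysozyme expression in myeloid cells and not in 1 myeloid cell type alone. The labels give myeloid cells of the fetal liver, the study's results describe CD11b+ cells sorted from the neonatal liver and its methods name liver RNA with no sort, and the stated ages (postnatal day 2 or 3) and controls (PD-1f/f or wild-type mice) also differ between these accounts. Nothing says how many mice gave each library, so p-values measure the spread between these libraries, which in cko may be technical. The wt libraries differ in Y-linked transcripts, as given below, and so did not come from the same mice.

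NF-κB proteins bind DNA as pairs through their shared Rel homology domain. Rela, Rel and Relb carry a transactivation domain, whereas Nfkb1 and Nfkb2 are made as the precursors p105 and p100, which yield the DNA-binding proteins p50 and p52. In the canonical route, receptors such as those for TNF, IL-1 and bacterial products activate the IKK complex, IκB proteins are degraded, and pairs such as Rela with p50 enter the nucleus within minutes. In the noncanonical route, receptors such as the lymphotoxin β receptor stabilise the kinase NIK, p100 is cleaved to p52, and Relb with p52 enters the nucleus more slowly. Much of this control acts on protein, which RNA levels do not show. Several subunit genes, their IκB inhibitors and many cytokine genes are themselves textbook NF-κB targets.

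The promoter windows of the subunit genes are shown because κB sites in front of these genes are a known feature of the family. RefSeq windows of the build GRCm38.p6 were matched for 3 of the 5 genes, Rela, Rel and Nfkb2, in 5 windows, and the 250 bases before each start were searched on both strands. Relb and Nfkb1 had no entry. Capitals mark each run that matches the κB consensus, and bases are counted upstream from the start.
Rel, chr11:23771006-23771106, minus strand, bases 92 to 82: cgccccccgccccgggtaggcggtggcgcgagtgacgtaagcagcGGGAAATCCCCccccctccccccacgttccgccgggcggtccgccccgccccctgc
Nfkb2, start 1, chr19:46304689-46304717, plus strand, bases 39 to 29: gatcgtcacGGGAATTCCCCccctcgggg
Nfkb2, start 1, chr19:46304717-46304736, plus strand, bases 11 to 1: gggccgaaaGGGGCTTTCCC
Nfkb2, start 2, chr19:46305449-46305478, plus strand, bases 236 to 227: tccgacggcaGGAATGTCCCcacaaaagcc
Nfkb2, start 3, chr19:46305695-46305724, plus strand, bases 225 to 216: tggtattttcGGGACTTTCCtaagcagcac
Rela, chr19:5637313-5637342, plus strand, bases 218 to 209: cagcaggcctGGGCCTCTCCctgcgcaggg
The κB consensus was found in 12.6% of all 32851 windows and in all 5 windows of these 3 genes. The windows of starts 2 and 3 of Nfkb2 overlap and lie inside the span of Nfkb2 given below. All bases printed for its start 1 lie in annotated Nfkb2 exons, as do 29 of the 30 printed for start 3. Those printed for start 2, Rel and Rela lie outside annotated exons of their gene. The motif was chosen after the windows had been seen, and a match describes letters and not binding.

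All values are FPKM, that is, reads per kilobase of gene and per unit of library depth, as the authors deposited them. The steps between low values gave the counted reads, 22212407 and 18822630 in the wt libraries and 18742154 and 17691505 in the cko libraries. The targeted gene Pdcd1 measured 28.5 and 34.7 FPKM in wt and 17.1 and 21.4 FPKM in cko (log2 fold change -0.69, adjusted p = 0.218 in limma), so that its transcript was still present in cko, and part of Pdcd1 outside the LoxP sites may still be counted. Lyz2, the locus that carries Cre, had 31306 and 32147 FPKM against 10422 and 8127 FPKM. The second wt library alone held Y-linked transcripts, with Ddx3y at 24.9 FPKM and at most 0.00866 FPKM in the other libraries, and the sex of the mice was therefore not balanced. In bulk RNA, fewer cells of a type and less RNA per cell cannot be told apart.

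Transcripts of all 5 subunit genes were more abundant in both cko libraries than in either wt library, with the noncanonical pair showing the larger folds. Nfkb2 was 3.98-fold and Relb 6.13-fold higher by the ratio of mean FPKM, against 1.41-fold for Rela, 1.77-fold for Nfkb1 and 2.72-fold for Rel. Groups that do not overlap in this direction were found in 33.6% of the 10779 genes tested, so that this order of the libraries is common by itself. With 2 libraries against 2, the smallest p of an exact two-sided permutation test is 0.33. The plot of FPKM by library shows the tight wt values and the spread within cko.

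**Figure D1:**
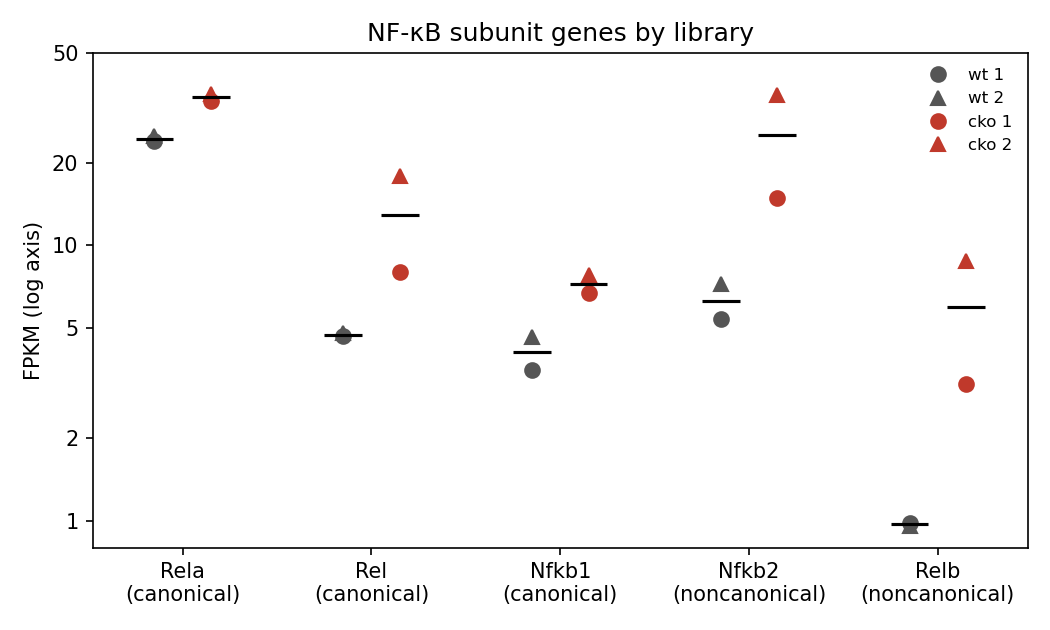
FPKM (log axis) of the 5 subunit genes in each library, with circles and triangles for the libraries of a group, grey for wt, red for cko and a line at each group mean. Both red symbols lie above both grey symbols for every gene, and for Rel, Nfkb2 and Relb the second cko library lies well above the first.

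Rela, which encodes p65, the main activating subunit of the canonical route, lies on the plus strand of chromosome 19 (chr19:5637483-5648130, GRCm38). It measured 23.9 and 25.0 FPKM in wt and 33.6 and 35.6 FPKM in cko, from 1277 to 1709 reads a library. Both groups were tight and did not overlap. The means were 24.5 ± 0.738 and 34.6 ± 1.41 FPKM (SD, n = 2), and limma gave a log2 fold change of 0.48 (SE 0.14, 95% interval 0.13 to 0.83) with an unadjusted p = 0.0155 and an adjusted p = 0.230.

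Rel, which encodes c-Rel, an activating subunit of blood cells, lies on the minus strand of chromosome 11 (chr11:23736847-23770970). It measured 4.68 and 4.82 FPKM in wt and 8.03 and 17.8 FPKM in cko. The wt libraries were almost equal, while the second cko library stood far above the first. The log2 fold change was 1.18 (SE 0.35, 95% interval 0.30 to 2.06), with an unadjusted p = 0.0175 and an adjusted p = 0.236 in limma. It was 0.65 when the second cko library was left out and 1.71 without the first (unadjusted p = 0.000813 in limma), which brought it past the study's unadjusted threshold given below.

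Nfkb1, the gene of p105 and p50, spans chr3:135584655-135691547 on the minus strand. It measured 3.52 and 4.66 FPKM in wt and 6.71 and 7.78 FPKM in cko. The groups were apart, with a gap between them wider than the spread within either. The means were 4.09 ± 0.809 and 7.25 ± 0.756 FPKM (SD, n = 2), and the log2 fold change in limma was 0.70 (SE 0.20, 95% interval 0.21 to 1.20) with an unadjusted p = 0.0137 and an adjusted p = 0.227. Gm43430, an unconfirmed transcript on the same strand, lies inside this span and had 0.751 and 0.627 FPKM against 1.78 and 1.68 FPKM, and the deposited values do not show how reads over both were assigned.

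Nfkb2, the gene of p100 and p52, lies on the plus strand of chromosome 19 (chr19:46304737-46312090). Its level was 5.39 and 7.22 FPKM in wt and 14.9 and 35.3 FPKM in cko, from 394, 447, 916 and 2056 reads. The lower cko library already stood clear of both wt libraries, and the other was higher again. The log2 fold change was 1.73 (SE 0.40, 95% interval 0.72 to 2.73), with an unadjusted p = 0.00607 and an adjusted p = 0.212 in limma. Leaving out the second cko library gave 1.13. Psd, on the opposite strand, overlaps the last bases of Nfkb2 and had 0.277 and 0.466 FPKM against 1.33 and 3.28 FPKM. The lncRNA AC114539.1 overlaps the Nfkb2 start, also on the opposite strand. The use of strand in the counting is not given in the sources used here, so reads in these overlaps cannot be told apart.

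Relb, the activating partner of p52, spans chr7:19606217-19629438 on the minus strand and was the least abundant subunit gene in wt. It measured 0.985 and 0.957 FPKM in wt and 3.13 and 8.77 FPKM in cko. These values came from 85, 70, 228 and 603 reads, or 3.83 (3.06 to 4.73), 3.72 (2.90 to 4.70), 12.2 (10.6 to 13.9) and 34.1 (31.4 to 36.9) RPM with 95% Clopper-Pearson intervals, which cover counting error only. The intervals of the wt libraries overlapped, and those of cko differed from each other by far more. The log2 fold change was 1.69 (SE 0.42, 95% interval 0.64 to 2.73) on the log2(FPKM + 1) scale, with an unadjusted p = 0.00805 and an adjusted p = 0.214 in limma. That scale understates low genes, and the log2 ratio of mean FPKM was 2.62. Leaving out the second cko library gave 1.07. Relb passed the filter of a mean of at least 1 FPKM only through the cko group.

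Of the 5 genes, 0 passed an adjusted p under 0.05 in limma, as did 0% of all genes tested, while 5 were higher at an unadjusted p under 0.05, against 11.4% of all genes, and 0 were lower, against 4.95%. The study's results used a log2 fold change above 1 with an unadjusted p under 0.01. Relb and Nfkb2 passed it, 2 of 5 genes, against 1.88% of all genes (203 of 10779) in this direction, and Rela, Rel and Nfkb1 did not. Relb was tested only because of its cko values, so it cannot be weighed against these shares. Relb was no longer past it without either wt library or without the second cko library, and Nfkb2 without either wt library. The median log2 fold change of all genes tested was 0.09. Each gene was higher in cko in every alternative that gave it a log2 fold change. None was given for Relb at a minimum mean of 5 FPKM. The crossed replicate block and the principal transcript lengths, added later, gave none for any of the 5 genes. The plot of log2 fold changes shows the effect of leaving out each library.

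**Figure D2:**
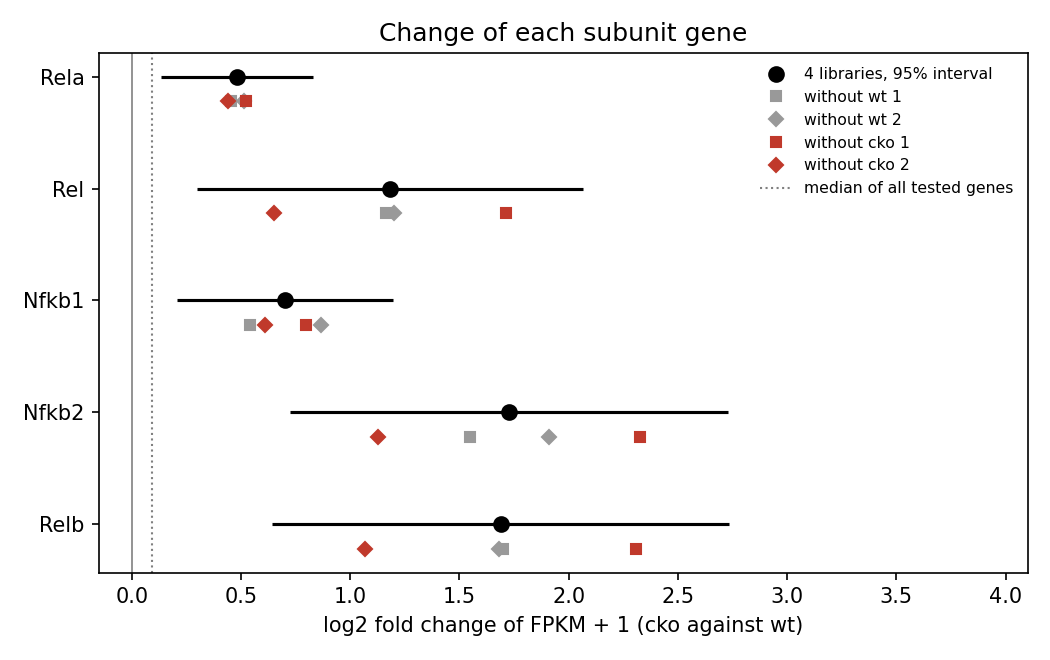
Log2 fold change of FPKM + 1, cko against wt, for each subunit gene, with 95% limma intervals in black and the value without each library as a coloured symbol. Nfkb2 (1.73) and Relb (1.69) lie farthest right, all intervals lie above 0, and leaving out a cko library moves Rel, Nfkb2 and Relb most.

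The make-up of the family differed between the groups in favour of the noncanonical pair. Relb and Nfkb2 together took 16.6% and 19.2% of the summed FPKM of the 5 genes in wt and 27.1% and 41.9% in cko. Both cko libraries were above both wt libraries, and they differed from each other by more than the first did from wt. Rela took 62.2% and 58.6% in wt and 50.6% and 33.8% in cko. The share of Rela was thus lower although its own FPKM was higher. The shares of Rel (12.2% and 11.3% in wt, 12.1% and 16.9% in cko) and Nfkb1 (9.13% and 10.9% in wt, 10.1% and 7.39% in cko) overlapped. Summed FPKM of the canonical genes was 32.1 and 34.5 against 48.3 and 61.2, and that of the noncanonical genes 6.38 and 8.18 against 18.0 and 44.1. The former was 1.64-fold and the latter 4.27-fold higher by the means.

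**Figure D3:**
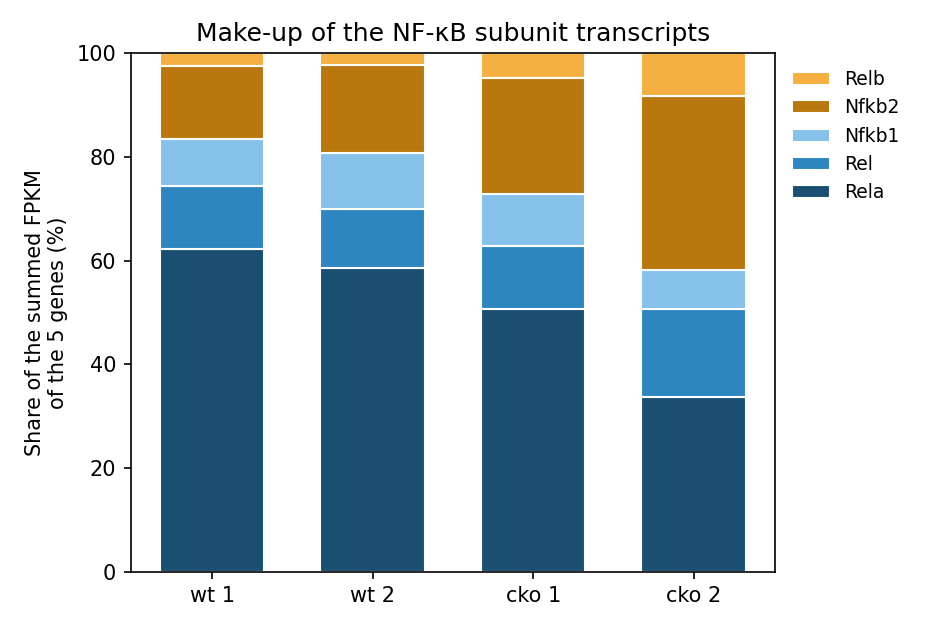
Share (%) of each subunit gene in the summed FPKM of the 5 genes, 1 bar per library, with canonical genes in blue and noncanonical genes in orange. The orange part is 16.6% and 19.2% in wt and 27.1% and 41.9% in cko, and the part of Rela is 62.2% and 58.6% against 50.6% and 33.8%.

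Ratios within a library do not depend on how libraries were scaled. Relb over Rela was 0.0412 and 0.0383 in wt and 0.0933 and 0.247 in cko. Nfkb2 over Nfkb1, the precursor genes, was 1.53 and 1.55 against 2.21 and 4.54. All 6 ratios of a noncanonical to a canonical gene were higher in both cko libraries, each with an exact two-sided permutation p of 0.33, the smallest that 4 libraries allow. The same held for 7.66% of all genes tested when set over Rela, 3.05% over Nfkb1 and 1.34% over Rel. The 6 ratios share their genes and are not independent, and Relb passed the filter on low values only through the cko group. Of the 4 ratios within a class, 3 were also higher, among them Relb over Nfkb2 (0.183 and 0.133 against 0.211 and 0.248) and Rel over Rela (0.196 and 0.193 against 0.239 and 0.501), and Rel over Nfkb1 overlapped (1.33 and 1.03 against 1.20 and 2.29). The difference of the class means of log2(FPKM + 1), noncanonical minus canonical, was -1.27 and -1.24 in wt and -0.73 and 0.05 in cko. It was higher by 0.92, against a pooled SD of 0.388 within groups, and by 0.53 without the second cko library.

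Per length, Rela was the most abundant subunit gene in wt, followed by Nfkb2, Rel, Nfkb1 and Relb. Rel and Nfkb1 were barely apart there, since the lower Rel library (4.68 FPKM) lay just above the higher Nfkb1 library (4.66 FPKM). In cko the ranges of Rela and Nfkb2 overlapped, as did those of Nfkb2 and Rel, those of Rel and Relb and those of Nfkb1 and Relb. In the second of these libraries Nfkb2 (35.3 FPKM) was level with Rela (35.6 FPKM). This order rests on the lengths behind the deposited FPKM, 12061 bp for Nfkb1, 7466 bp for Rel, 3885 bp for Relb, 3289 bp for Nfkb2 and 2716 bp for Rela. With principal transcripts of GENCODE M21 (4117 bp for Nfkb1), Nfkb1 came to 10.3 and 13.7 FPKM in wt and moved above Nfkb2 (5.65 and 7.56 FPKM). The noncanonical share was then 15.9% and 17.5% against 25.6% and 40.8%. The ratio of mean FPKM of a single gene does not depend on its length, whereas the log2 fold change of FPKM + 1 does. With principal transcript lengths the difference of the class means was higher in cko by 1.02, beside 0.92 with the deposited values.

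The other genes with a Rel homology domain in the files' Pfam annotation are the 5 NFAT genes. The gene names with this domain came to 10 in all. Of 3 NFAT genes tested, 0 passed an unadjusted p under 0.05 in limma, beside 16.4% of all genes. Their median log2 fold change was 0.38, beside 0.09 over all genes. Nfatc1 had 23.5 and 19.9 FPKM in wt and 18.2 and 16.4 FPKM in cko (log2 fold change -0.31), while Nfatc3 (0.39) and Nfat5 (0.38) were higher in both. Summed NFAT FPKM was 25.5 and 22.7 against 21.4 and 20.6, so the sum was lower where the sum of the NF-κB genes was higher. That NFAT sum was mostly Nfatc1, and Nfatc3 and Nfat5 went the other way.

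Among the receptor genes upstream of the subunits, 1 of the 10 tested passed the unadjusted threshold, beside 1.88% of all genes. Of 6 canonical receptor genes, 4 were higher in both cko libraries, beside 33.6% of all genes, and 0 passed, with a median log2 fold change of 0.73. Tlr2, a receptor for bacterial lipoproteins, had 31.5 and 17.2 FPKM against 57.2 and 159.4 FPKM (1.99, unadjusted p = 0.0101 in limma). Cd14, the lipopolysaccharide co-receptor, and Il1rap, a part of the IL-1 receptor, had log2 fold changes of 1.51 and 0.81. Tlr4 (0.65) and Il1r1 (-0.07) overlapped between the groups. Of 4 noncanonical receptor genes tested of 7, 3 were higher in both, beside the same 33.6% of all genes. Their median was 0.59, and Tnfrsf13c overlapped (-0.44). Of those not tested, Cd27 was lower in both cko libraries, with 0.986 and 1.07 FPKM against 0.298 and 0.267 FPKM. Cd40 (0.317 and 0.406 against 0.548 and 2.27 FPKM) and Tnfrsf11a (0.113 and 0.0799 against 0.178 and 0.595 FPKM) were higher in both. Tnfrsf1b, TNF receptor 2, had 20.8 and 20.4 FPKM against 35.3 and 57.8 FPKM and was the receptor gene past the unadjusted threshold (1.10, unadjusted p = 0.00548, adjusted p = 0.212 in limma). It was listed with the noncanonical receptors, although receptors for TNF were also named above for the canonical route. Ltbr, the lymphotoxin β receptor, had 20.3 and 24.9 FPKM against 34.0 and 31.2 FPKM (0.52), and Tnfrsf12a had 0.67. Of the 7 noncanonical ligand genes, 3 were tested, with a median of 0.21. An unadjusted p under 0.05 in limma was reached by 0 of them, beside 16.4% of all genes.

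Among the kinases and adaptors of the canonical route, 13 of 14 tested genes had a log2 fold change above 0, beside 60.4% of all genes, and 4 were higher at an unadjusted p under 0.05 in limma, beside 11.4%. Their median was 0.39 and 0 passed the unadjusted threshold with its fold limit. Myd88, the adaptor of Toll-like and IL-1 receptors, had 81.0 and 83.1 FPKM against 125 and 206.3 FPKM (0.96), and Irak4 and Tab2, which act below it, had 0.76 and 0.59. Of the 6 noncanonical genes, 4 were higher in both cko libraries, beside 33.6% of all genes, and 1 was lower in both, beside 18%. The unadjusted threshold was passed by 0 of them, beside 1.88% of all genes that passed it as higher, and their median was 0.41. Birc3, which encodes cIAP2, had 20.8 and 18.4 FPKM against 32.0 and 71.9 FPKM (1.25). Chuk, the kinase IKKα, and Traf3, which holds NIK in check, had 0.50 and 0.48. Map3k14, the gene of NIK itself, was looked at after its values were known and overlapped, with 1.49 and 2.18 FPKM against 1.27 and 2.00 FPKM (-0.11, unadjusted p = 0.702 in limma).

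The IκB inhibitors and deubiquitinases, many of which are NF-κB targets, had a median log2 fold change of 0.92 over 11 genes. Of these, 9 were higher in both cko libraries, beside 33.6% of all genes, 6 at an unadjusted p under 0.05 in limma, beside 11.4%, and 3 passed the unadjusted threshold with its fold limit, beside 1.88%. Tnfaip3, which encodes the deubiquitinase A20, had 2.80 and 2.69 FPKM against 8.10 and 31.2 FPKM (2.19, unadjusted p = 0.00967 in limma). Bcl3, a nuclear IκB protein that binds p50 and p52, had 2.78 and 2.17 FPKM against 9.90 and 17.9 FPKM (2.05, unadjusted p = 0.000619 in limma). Nfkbia, the gene of IκBα, had 222 and 206 FPKM against 396 and 904 FPKM (1.48, unadjusted p = 0.00919 in limma). As with all 5 subunit genes, the second cko library was the highest of the 4 for each of these. The processing enzymes and cofactors, 12 genes, had a median of -0.02, with 6 above and 6 below 0. Only 1 of the 12 genes had an unadjusted p under 0.05 in limma, beside 16.4% of all genes. It was Rnf123, the ligase KPC1 linked to p105 processing (-0.50).

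Of the textbook target genes of the canonical route, 13 of 14 were tested, and 10 of these were higher in both cko libraries, beside 33.6% of all genes. Their median log2 fold change was 1.99, but 2 of them, Cxcl1 and Bcl2a1b, passed the filter on low values only through the cko group. Il6, Ccl4 and Bcl2a1b overlapped between the groups, and the first cko library had 0.0653 FPKM of Bcl2a1b, below both wt libraries (0.606 and 0.260 FPKM). The unadjusted threshold was passed by 5 of the 13, Cxcl2, Cxcl10, Tnf, Ccl3 and Sod2, beside 1.88% of all genes. Of the 7 noncanonical target genes, most of which are known from lymphoid stroma, 5 were in the files and 0 reached the mean of 1 FPKM, so the class could not be compared. They summed to 1.20 and 1.61 FPKM in wt and 0.660 and 3.06 FPKM in cko. In all these lists 0 genes passed an adjusted p under 0.05 in limma.

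**Figure D4:**
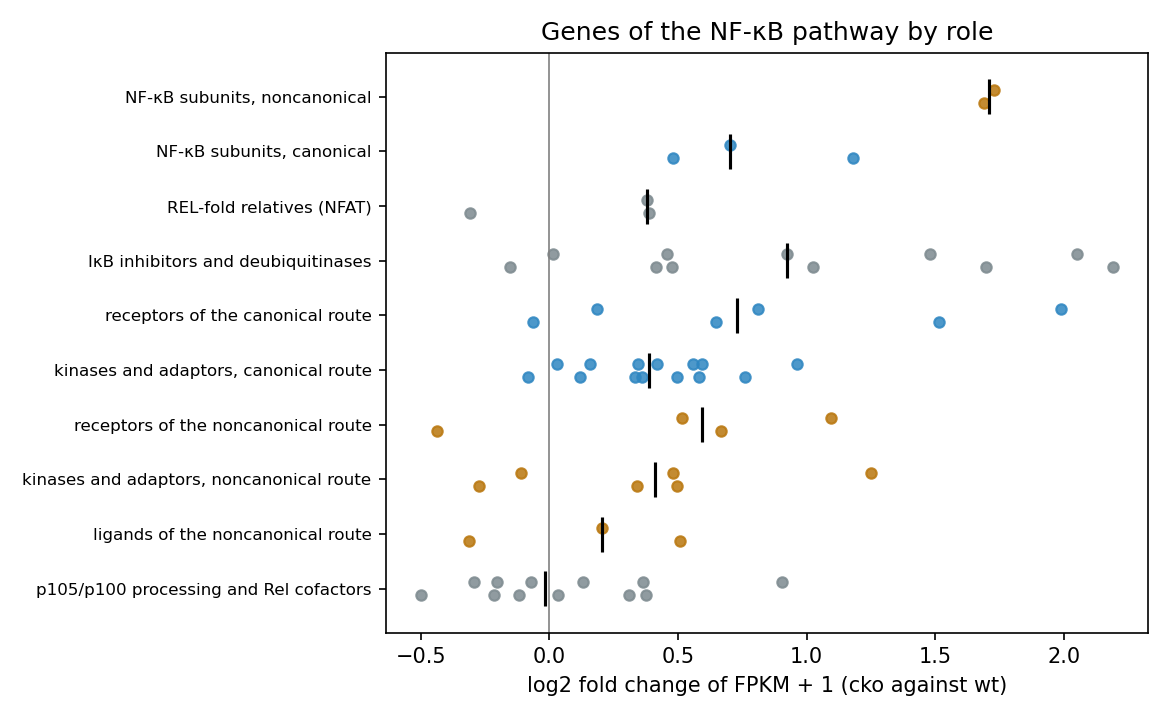
Log2 fold change of FPKM + 1, cko against wt, for each tested gene of the NF-κB pathway by role, 1 point per gene, with a line at the median of each list, orange for noncanonical, blue for canonical and grey for other lists. The noncanonical subunits (median 1.71) lie right of the canonical subunits (0.70), and the processing genes (median -0.02) lie on both sides of 0, with Map3k8 farthest right at 0.91.

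Markers of several cell types also moved with the groups, and their part in the values above was not tested. Of 10 neutrophil markers, 8 had lower values in cko, 7 of them in both libraries, beside 18% of all genes. Elane (0.41, higher in both cko libraries) and Mpo (0.30) went the other way. The summed FPKM of the 10 markers was 160500 and 136200 against 109500 and 90870. Erythroid markers, 7 tested, were all lower in both libraries, beside the same 18% of all genes (3703 and 2324 against 1411 and 1498 FPKM). Of 6 B cell markers tested, 5 were lower in both, again beside 18% (53.7 and 68.1 against 34.6 and 44.4 FPKM). Of 7 monocyte markers, 6 had a log2 fold change above 0, beside 60.4% of all genes, with a median of 0.32. F13a1, with 44.1 and 34.1 FPKM against 55.4 and 80.2 FPKM (0.77, unadjusted p = 0.0183 in limma), and Csf1r, with 40.9 and 33.0 FPKM against 45.6 and 112.9 FPKM (0.95), were higher in both cko libraries, and Ly6c2 was lower in both (-0.12). Ly6c2 made up most of the monocyte sum, 480 and 463.6 against 472.9 and 585.8 FPKM. Of 8 macrophage markers, 4 were above and 4 below 0, and their sums overlapped (340.3 and 238.2 against 232.7 and 352.4 FPKM). Among dendritic cell markers, a type with high Relb, 2 of 9 were tested, the sums were 31.1 and 33.0 against 24.7 and 36.3 FPKM, and both tested genes overlapped between the groups. These were Bst2 (-0.15) and Itgax, with 0.506 and 0.852 FPKM against 0.678 and 3.17 FPKM (0.66), which was highest in the second cko library, as Relb was, and passed the filter only through the cko group. Of the untested 7, Ccr7 reached 1.29 FPKM in the second wt library, Cd209a was at 0 in the second library of each group, and Flt3, Zbtb46, Xcr1, Clec9a, Siglech and Cd209a stayed under 1 FPKM in every library. T and NK cell markers summed to 60.7 and 38.4 against 32.7 and 27.8 FPKM, with Cd3e at 0 in 3 of 4 libraries. Hepatocyte markers summed to 60.3 and 101 against 42.7 and 52.1 FPKM and megakaryocyte markers to 25.3 and 10.5 against 10.3 and 17.8 FPKM. Immediate early genes, which tissue handling also induces, summed to 2534 and 2391 against 3174 and 3460 FPKM. Of these 8 genes, 5 were higher in both cko libraries, beside 33.6% of all genes.

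The genes whose profile over the 4 libraries was most like that of each subunit gene were named by the Euclidean distance of log2(FPKM + 1), each centred on its own mean. They describe these libraries and carry no test. For Relb the nearest was Tnfaip2 (distance 0.0687), with 4.14 and 4.06 FPKM against 9.73 and 23.0 FPKM, followed by the pseudogene Gm43671 (0.129) and Egr3 (0.162). For Nfkb2 these were AC151971.7 (0.107), a pseudogene, Egr3 (0.135) and the miRNA gene Gm23802 (0.182), so Egr3, an early response gene, was near both. For Rel the nearest was Ets2 (0.0232), with 17.3 and 18.0 FPKM against 28.0 and 60.5 FPKM, then 2810474O19Rik (0.0876) and Il10ra (0.109). For Rela these were Llgl2 (0.0239), Mybbp1a (0.0276) and Srp72 (0.0355), and for Nfkb1 Papss2 (0.0195), Gm26789 (0.0536) and Acbd3 (0.0555). Of these near genes, Gm43671, Gm23802, Llgl2 and Papss2 passed the filter on low values only through the cko group, as Relb did. Within the family, Nfkb2 was the gene ranked 9 from Relb and Relb the gene ranked 7 from Nfkb2 (distance 0.276). Rel ranked 68 and 62 from these, Nfkb1 771 and 677, and Rela 1572 and 1549. From Rel, however, Relb (distance 0.525) and Nfkb2 (0.601) were nearer than Nfkb1 (0.808) and Rela (0.985) of its own class, so these profiles did not follow the division into classes.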

How the data were processed

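RNA-seq libraries of mouse myeloid cells, 2 per group, were grouped by their labels. The authors deposited FPKM per gene, 1 library per file, not scaled between libraries. The submitters' processing notes name TopHat2 2.0.12, Bowtie2 2.2.3, HTSeq 0.6.0 and the build mm9, whereas 92.61% of gene positions, and those of 4 of the 5 members, equal GENCODE M21 (GRCm38). Reads were recovered from the FPKM steps (tolerance 0.005 reads) for 98.54% of genes. A gene of low FPKM rests on few reads.

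Groups were compared with limma 3.58.1 in R 4.3.3 (lmFit, eBayes with trend) on log2(FPKM + 1) for the 10779 genes averaging 1 FPKM or more, with Benjamini-Hochberg adjustment over all of them. Thresholds were those of the study. The fit was run on simulated reads with known changes and the same dispersion for all genes. This does not show how it performs at the spread of the cko libraries. Alternatives were a pseudocount of 0.1, no filter, a floor of 5 FPKM, median-of-ratios factors, TPM, a replicate block, voom on the recovered reads of genes averaging 10 or more, and leaving out each library. A crossed block and principal transcript lengths were added after the data were seen. Tables and figures used Python 3.11.15 and matplotlib 3.10.9.

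Members and lists were chosen with earlier results of these data known. All members are named, with list genes past the unadjusted threshold or, at most 3 a list, with groups apart and the largest change, and the 3 most like genes of each member. Rnf123, Map3k8, Map3k14, Tlr4, Il1r1, Tnfrsf13c, Cd27, Cd40, Tnfrsf11a, target genes, markers and overlapping genes lie outside this rule.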

Additional observations from a re-analysis of the deposited data

How the results depend on the processing

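Of 86 values under an alternative, 69 counted as unchanged. For a subunit gene this meant the same direction and side of the unadjusted threshold. For a count of genes it meant a move of at most 1.5 times, and for the class difference one below its pooled SD of 0.388. With 2 libraries a group, leaving out 1 cannot move the class difference beyond that SD, so it could not count as moved there. Of the rest, 7 gene values lost the unadjusted threshold, 3 passed it and 7 counts moved further. The direction turned in 0. Without a filter, Relb (1.69, unadjusted p = 0.0189 in limma) and Nfkb2 (1.73, unadjusted p = 0.0141) no longer passed. Rel passed as TPM (1.46) and with voom (1.33). The lowest and highest values with 1 library left out were 0.44 and 0.52 for Rela, 0.65 and 1.71 for Rel, 0.54 and 0.87 for Nfkb1, 1.07 and 2.31 for Relb, and 1.13 and 2.33 for Nfkb2, each lowest without the second cko library except Nfkb1, lowest without the first wt library. The lone library of a group was then assumed to vary like the other group. The class difference ranged from 0.53 to 1.31. Genes past the unadjusted threshold numbered 247 (203 higher, 44 lower), 126 at a minimum of 5 FPKM, where Relb was not tested, 500 as TPM (468 higher, 32 lower), 214 with median-of-ratios factors (142 higher, 72 lower) and 136 to 472 with 1 library left out. Genes past the adjusted threshold numbered 0 (1768 at an unadjusted p under 0.05), 2 with voom and 1 with the crossed replicate block (wt 1 with cko 2), and 0 with any library left out. TPM raised the median of all genes to 0.30, and relative to it Rela, Rel, Nfkb1, Relb and Nfkb2 were at 0.41, 1.17, 0.67, 1.90 and 1.72. The replicate numbers are not stated to pair libraries, and same-numbered deviations correlated at -0.163 over 10779 genes. Under the replicate block, 258 genes passed the unadjusted threshold (215 higher, 43 lower), and no subunit gene changed its call. The causes of these shifts were not tested. Depth limited Relb most, with 70 reads in 1 library.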
